A study of Mus musculus with 12 samples.

Results

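In vitro iSEPs, induced stratified epithelial progenitor cells that had been made in culture from adipose stroma, were compared with primary keratinocytes grown in the same medium. The comparison holds 6 of the 12 libraries of the series, 3 of each cell type, and they were chosen by their labels alone. The remaining libraries are 3 of adipose-derived stromal cells (ADSCs), which give the level from which the conversion started, and 3 of in vivo iSEPs, which share the estimate of the spread. Every sample carried the same alleles, Pdgfra-creER and LSL-tdTomato, in which a tamoxifen-dependent Cre driven by the promoter of the stromal receptor gene Pdgfra switches on a red reporter. ADSCs were Pdgfra-positive primary cells of subcutaneous adipose tissue grown in DMEM with 10% FBS. In vitro iSEPs had the same tissue as their source, in vivo iSEPs came from epithelium that formed from mesenchyme within the animal, and keratinocytes came from back skin. These last 3 groups shared a serum-free medium for keratinocytes. The medium therefore does not differ between in vitro iSEPs and keratinocytes, while it does differ between either of them and ADSCs. Numbers 1 to 3 in the labels name the mouse. The sources used here give no age or sex, and do not say whether a culture was pooled or cloned.

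The basal keratinocyte of the epidermis expresses keratins Krt5 and Krt14, anchors itself through hemidesmosomes, and on leaving the basal layer switches to Krt10 and the genes of the cornified envelope. The transcription factor p63, encoded by Trp63, is required for stratified epithelium, and Grhl2 and Tfap2a are partners in the epithelial programme. The study is known for converting stromal cells with DNP63A, GRHL2, TFAP2A and MYC, although the labels do not name the factors, and reads of introduced copies cannot be told from those of the mouse genes in a table of this kind. The question put to the data was which genes of such cells still stood at the stromal level, which had moved only part of the way to keratinocytes, and which had gone past them.

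The cell types matched their labels on most markers. The 8 keratinocyte markers summed to 20820 to 26580 FPKM (fragments per kilobase of transcript, scaled to library depth) in in vitro iSEPs and to 23160 to 24950 in keratinocytes, against 13.7 to 15.9 in ADSCs. The 10 fibroblast markers summed to 109 to 335 FPKM in in vitro iSEPs, 43.2 to 53.1 in keratinocytes and 8873 to 11290 in ADSCs, so the iSEP libraries did not overlap the keratinocyte libraries on this list. Bulk RNA cannot tell a few stromal cells with much of a transcript from many cells with little of it, and the part that remaining stromal cells play in the results was not tested. The 9 immune markers summed to 9.11 to 14.2 FPKM in in vitro iSEPs and 2.73 to 4.25 in keratinocytes, with Cd207, Cd3e, Cd3g and Adgre1 at 0 in all 6 libraries. In each of these groups 8 of the 9 stayed under 1 FPKM in every library. Of the 3 tested, only Cd68 differed (limma adjusted p = 0.0159), and not without the iSEPs of mouse 3 (0.0627) or the keratinocytes of mouse 2 or 3 (0.0693 and 0.0592). Muscle markers summed to at most 0.176 FPKM, endothelial and mural markers to at most 3.27, and melanocyte markers to at most 4.83 in these libraries, with Tyr at 0. Merkel and simple epithelial markers summed to 5.61 to 31.6 FPKM in in vitro iSEPs, wholly below the 52.1 to 65.2 of keratinocytes. Neural and glial markers summed to 21.1 to 42.6 and 18.6 to 28.8 FPKM. No tested member of these last 2 lists was called.

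One library stood apart on sex-linked genes. The Y-linked gene Ddx3y measured 16.2 FPKM in in vitro iSEPs of mouse 2, 0.166 in those of mouse 3 and 0 in those of mouse 1, while it stood at 14.3 and 12.1 in keratinocytes of mice 2 and 3 and at 27.6 and 23.4 in their ADSCs. Eif2s3y, Kdm5d and Uty were likewise at 0.092, 0.03 and 0.046 FPKM in in vitro iSEPs of mouse 3. Xist, the RNA of the inactive X chromosome, measured 31.9 FPKM in in vitro iSEPs of mouse 1 and 0.016 in those of mouse 3. The library labelled in vitro iSEPs of mouse 3 thus had little of both Xist and the Y-linked transcripts that the ADSC and keratinocyte libraries of its number show, and the cause was not tested. Counts are therefore also given without it.

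Of 12364 genes tested, 1403 (11.3%) differed between in vitro iSEPs and keratinocytes at a limma adjusted p below 0.05, 646 (5.22%) higher and 757 (6.12%) lower in in vitro iSEPs. For scale, keratinocytes differed from ADSCs in 53.5% of the genes and in vitro iSEPs differed from ADSCs in 53.8%. The median difference over all genes was -0.02 on the log2(FPKM + 1) scale, on which all log2 differences here are given. Of the called genes, 688 differed by at least 1, and in 99.6% of them the 3 iSEP libraries did not overlap the 3 keratinocyte libraries. Over all genes tested, 17.8% were higher and 23% lower without overlap. The library of in vitro iSEPs of mouse 3 weighed on these counts: without it 751 genes were called, 393 higher and 358 lower. Without the keratinocytes of mouse 1, 2 or 3 the counts were 759, 524 and 621. In vitro iSEPs varied more than keratinocytes, with a median SD of a gene of 0.197 against 0.117 and with 269 against 49 genes whose SD exceeded 1.

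To place the iSEP level, a gene's position was taken as the iSEP minus ADSC difference divided by the keratinocyte minus ADSC difference, so that 0 is the mean of ADSCs and 1 that of keratinocytes. It was computed for 1519 genes that separate ADSCs from keratinocytes (called, with a log2 difference of at least 2), of which 723 are higher in ADSCs (stromal genes) and 796 higher in keratinocytes (epithelial genes). Most had reached the keratinocyte side: 1184 did not differ detectably between in vitro iSEPs and keratinocytes, at median positions of 0.951 for stromal and 0.973 for epithelial genes. Missing the threshold does not show that such a gene had equal levels. In vitro iSEPs differed from keratinocytes in 18.7% of the stromal and 25.1% of the epithelial genes, 335 in all. Of these, 21 stromal and 39 epithelial genes kept the stromal level (a position below 0.25), 98 and 123 fell short (0.25 to below 1), and 16 and 38 overshot (above 1).

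**Figure D1:**
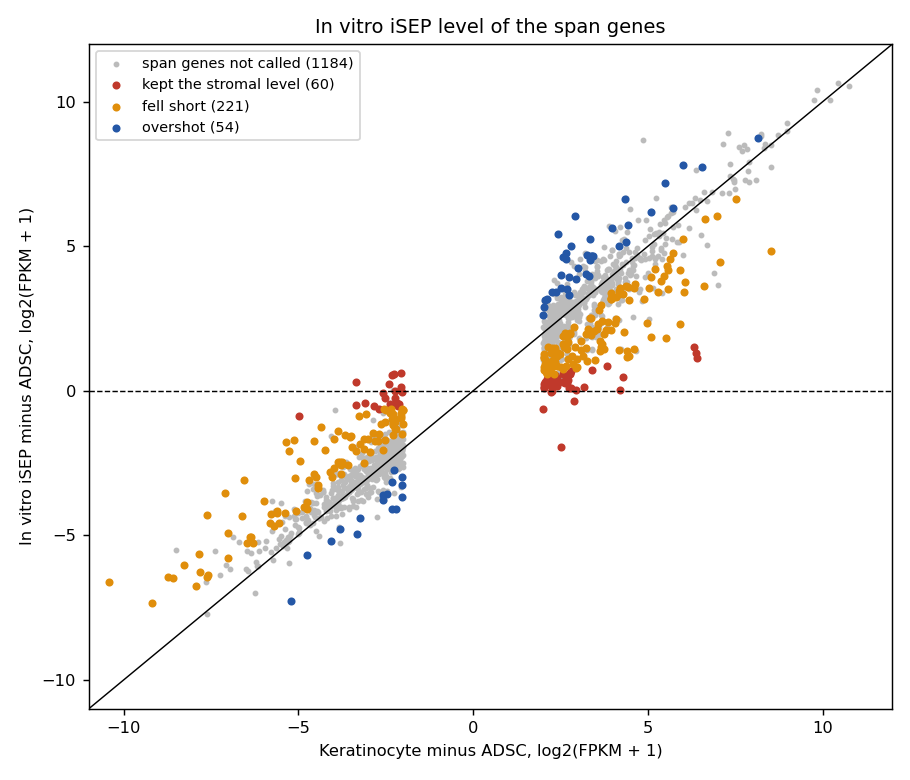
Each point is a gene that separates ADSCs from keratinocytes, with the keratinocyte minus ADSC difference on the x axis and the in vitro iSEP minus ADSC difference on the y axis, both of group means of log2(FPKM + 1). The solid diagonal is the keratinocyte level, the dashed line the ADSC level: the 1184 grey genes lie along the diagonal, the genes that kept the stromal level near the dashed line, those that fell short between the lines and those that overshot beyond the diagonal.

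These counts were sensitive to single libraries. In the 98 stromal genes that fell short, the median position was 0.705 in iSEPs of mouse 1, 0.546 in those of mouse 2 and 0.632 in those of mouse 3, each set against the group means. The order of the mice differed between classes: in the stromal and epithelial genes that kept the stromal level, iSEPs of mouse 1 had the lowest median position (-0.038 and 0.019), and in the epithelial genes that fell short those of mouse 2 had the highest (0.635). Without the iSEP library of mouse 3 the numbers of stromal genes kept, short and overshot were 21, 55 and 7 in place of 21, 98 and 16. The numbers of epithelial genes were 34, 70 and 27 in place of 39, 123 and 38. Without the keratinocytes of mouse 1, 2 or 3 the stromal genes that fell short numbered 62, 43 and 43 and those that overshot 7, 6 and 6, while the epithelial genes that fell short numbered 67, 51 and 59. Stromal genes that kept the stromal level numbered 13 without the keratinocytes of mouse 2 and 14 without those of mouse 3. Epithelial genes that kept it numbered 33 to 42 without any 1 library.

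Stromal genes that kept the stromal level numbered 21, at a median position of 0.117 and a median of 2.28 above keratinocytes, and 6 of them lay above the ADSC mean. The 5 with the largest difference were Tfpi, Ly6c1, Gjb2, Gpnmb and Gadd45g. Tfpi (chr2:84432860-84474174 in mm10), the inhibitor of the tissue factor pathway that starts blood clotting, measured 34.7, 39.4 and 26.4 FPKM in in vitro iSEPs of mice 1, 2 and 3 and 1.52, 0.723 and 0.74 in keratinocytes. All iSEP libraries lay far above the keratinocytes, 33.7-fold on the means, with a log2 difference of 4.12 ± 0.19 (SE) and a limma adjusted p of 2.49e-06. Its ADSC mean was 61.6 ± 5.8 (SD, n = 3), and it was the only one of the 21 genes that also differed from ADSCs (adjusted p = 0.00251).

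The gap junction gene Gjb2, which encodes a connexin, measured 30.2, 23.9 and 27.5 FPKM in in vitro iSEPs against 3.66, 2.35 and 2.47 in keratinocytes. The iSEP libraries lay at or above the ADSC mean of 19 ± 8.05 FPKM (position -0.239), and the difference from keratinocytes was 2.89 ± 0.31 (adjusted p = 0.000479). Gpnmb, a transmembrane glycoprotein, measured 17.4, 26.6 and 25.4 FPKM against 1.70, 2.69 and 2.67, again above the ADSC mean of 15.2. Gadd45g, a stress-inducible gene of growth arrest, measured 67.8, 43.8 and 61.4 FPKM against 8.56, 7.50 and 8.08, with an ADSC mean of 76.2. Ly6c1 stood at 31.0, 20.8 and 43.7 FPKM against 1.26, 1.52 and 1.77, and near-identical copies of the Ly6 family may share its reads. None of these groups overlapped between iSEPs and keratinocytes, and each of the 5 calls held without any 1 of the 6 libraries (adjusted p at most 0.0354).

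Epithelial genes that kept the stromal level numbered 39, at a median position of 0.117 and a median of 2.26 below keratinocytes, and 5 of them differed from ADSCs. Klk6 (chr7:43825450-43832027), a kallikrein serine protease, had the largest difference of the named genes in either direction. It measured 3.90, 0.297 and 0.746 FPKM in in vitro iSEPs against 69.2, 94.2 and 92.2 in keratinocytes, with an ADSC mean of 0.0167. Every iSEP library lay below every keratinocyte library, 51.8-fold on the means, at a log2 difference of -5.26 ± 0.64 (adjusted p = 0.000921).

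Moxd1 (chr10:24223517-24302783), a relative of dopamine beta-hydroxylase, measured 1.12, 3.03 and 4.70 FPKM against 89.9, 141 and 139. It was 41.8-fold lower in in vitro iSEPs (log2 difference -5.06 ± 0.73, adjusted p = 0.00221). Slco2a1, a prostaglandin transporter, measured 2.07, 5.96 and 4.35 FPKM against 96.9, 106 and 112. The iSEP libraries lay below the ADSC mean of 17.5 ± 1.57 as well (position -0.765, adjusted p against ADSCs 0.0253), so the gene had moved away from keratinocytes. The ligand gene Wnt9a stood at 1.07, 5.20 and 2.98 FPKM against 44.5, 53.7 and 53.8 (adjusted p = 0.00224).

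Lactoferrin, encoded by Ltf, was listed at 0, 0.061 and 0 FPKM in in vitro iSEPs and at 65.0, 9.22 and 8.58 in keratinocytes, and at a mean of 0.00433 in ADSCs. Tfap2b, a paralogue of the factor Tfap2a, was listed at 0 in all 3 libraries of in vitro iSEPs and of ADSCs, and at 3.80, 3.98 and 3.56 FPKM in keratinocytes (adjusted p = 1.33e-05). Both lay wholly on the ADSC side of the span. The platelet chemokine gene Ppbp measured 1.09, 25.2 and 3.48 FPKM against 227, 156 and 147 (adjusted p = 0.0243), with 1 iSEP library well above the others. This call was lost without the iSEPs of mouse 1 or 3 (adjusted p = 0.0751 and 0.0795) or the keratinocytes of mouse 1, 2 or 3 (0.0786, 0.0766 and 0.0687).

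Stromal genes that fell short formed the larger stromal class, 98 genes at a median position of 0.635, and 90 of them also differed from ADSCs. Postn (chr3:54361107-54391041), which encodes the matrix protein periostin, fell from a mean of 3048 ± 984 FPKM in ADSCs to 9.59, 61.5 and 39.5 in in vitro iSEPs, against 1.78, 1.06 and 0.738 in keratinocytes. The iSEPs stood between the other groups in every library, 30.9-fold above keratinocytes on the means (log2 difference 3.80 ± 0.62, adjusted p = 0.00422). Sparc, another secreted matrix glycoprotein, measured 241, 272 and 222 FPKM against 52.0, 11.8 and 12.7, from 2867 ± 247 in ADSCs, and stood midway at a position of 0.5. Fkbp10, which helps collagen to fold, measured 35.5, 83.3 and 70.3 FPKM against 9.05, 2.80 and 2.41, from 207 ± 32.8 in ADSCs. In each of these genes the keratinocytes of mouse 1 had the highest value of their group.

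Hoxc10, a posterior Hox gene, measured 10.8, 7.32 and 11.5 FPKM in in vitro iSEPs and was listed at 0 in all 3 keratinocyte libraries, with an ADSC mean of 34.2 ± 4.89 (position 0.334, adjusted p = 2.49e-06). Gpx3, a secreted glutathione peroxidase, measured 26.1, 55.9 and 56.9 FPKM against 8.50, 1.55 and 1.65 (adjusted p = 0.0166). Its call was lost without the iSEPs of mouse 3 (adjusted p = 0.0599) or the keratinocytes of mouse 2 or 3 (0.0734 and 0.067). Those of Postn, Sparc, Fkbp10 and Hoxc10 held without any 1 library.

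Epithelial genes that fell short were the largest of the 6 classes, with 123 genes at a median position of 0.58 and a median of 1.33 below keratinocytes. Prl8a9 (chr13:27557996-27564606), a member of the prolactin family, measured 4.23, 2.66 and 1.86 FPKM in in vitro iSEPs against 14.9, 83.8 and 86.3 in keratinocytes (log2 difference -3.69 ± 0.69, adjusted p = 0.00799). The highest iSEP library lay below the lowest keratinocyte library, that of mouse 1. Ucp2, a mitochondrial uncoupling protein, measured 10.8, 10.8 and 11.5 FPKM against 114, 171 and 157 (adjusted p = 0.00122), a 13.3-fold difference with iSEP libraries that lay close together. Lcn2, the secreted siderophore-binding protein lipocalin 2, measured 3.74, 2.93 and 2.0 FPKM against 18.6, 51.6 and 45.5 (adjusted p = 0.00179).

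Sprr4, a gene of the cornified envelope, measured 3.74, 0 and 1.58 FPKM against 15.6, 23.8 and 25.1 (adjusted p = 0.00135). Clu, the secreted chaperone clusterin, had a mean of 59.4 ± 17.8 FPKM in in vitro iSEPs against 771 ± 106 in keratinocytes, without overlap (adjusted p = 0.0252). Its call was lost without any 1 of the 6 libraries: adjusted p was 0.0647, 0.0618 and 0.0582 without the iSEPs of mouse 1, 2 and 3, and 0.0672, 0.0875 and 0.0756 without the keratinocytes of mouse 1, 2 and 3. The calls of the 4 other genes held.

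Overshooting was less frequent: 38 epithelial genes stood above keratinocytes (median position 1.4) and 16 stromal genes below them (median position 1.42). Rdh12 (chr12:79208913-79222664), a retinol dehydrogenase, measured 162, 77.8 and 149 FPKM in in vitro iSEPs against 13.3, 13.9 and 13.2 in keratinocytes and a mean of 0.918 in ADSCs. The lowest iSEP library was above the highest keratinocyte library several times over, and the log2 difference was 3.11 ± 0.40 (adjusted p = 0.00123). Gdpd2 (chrX:100730186-100738901), a glycerophosphodiester phosphodiesterase, measured 138, 113 and 119 FPKM against 26.5, 25.3 and 22.6 (adjusted p = 0.000243). Gm94 measured 47.2, 25.9 and 58.3 FPKM against 9.30, 3.31 and 2.55, and Ces2e, a carboxylesterase, 21.1, 61.9 and 43.1 against 8.81, 6.32 and 7.54. Phyhip had means of 32.8 ± 1.47 and 6.83 ± 0.661 FPKM (adjusted p = 0.037). Its call was lost without any 1 of the 6 libraries, at 0.0813, 0.0721 and 0.0959 without the iSEPs of mouse 1, 2 and 3 and at 0.0952, 0.115 and 0.0906 without the keratinocytes of mouse 1, 2 and 3.

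Among stromal genes that overshot, Myl9, the regulatory light chain of smooth muscle and stromal myosin, measured 49.8, 52.8 and 31.4 FPKM in in vitro iSEPs against 139, 165 and 179 in keratinocytes, from 759 ± 143 in ADSCs. It lay below the keratinocytes in every library (log2 difference -1.85 ± 0.33, adjusted p = 0.00596). Fam129a measured 2.96, 6.67 and 4.59 FPKM against 9.65, 20.6 and 20.8 (adjusted p = 0.00618), and both calls held without any 1 library. Timp3, an inhibitor of metalloproteinases, had means of 2.07 ± 1.21 and 12.5 ± 6.62 FPKM, against 450 ± 60.3 in ADSCs. Its adjusted p was 0.041, and 0.118, 0.0587 and 0.0729 without the iSEPs of mouse 1, 2 and 3 and 0.141 and 0.142 without the keratinocytes of mouse 2 and 3. Fbln2 and Akap12 had fold differences of 3.08 and 3.98 in the same direction (adjusted p = 0.0425 and 0.0217). Fbln2 was lost with the mouse number as a block (0.05) and without the iSEPs of mouse 1 or 3 (0.124 and 0.106) or the keratinocytes of mouse 1, 2 or 3 (0.0918, 0.126 and 0.123). Akap12 was lost without the iSEPs of mouse 1 (0.0609) or the keratinocytes of mouse 1, 2 or 3 (0.083, 0.0508 and 0.0603).

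**Figure D2:**
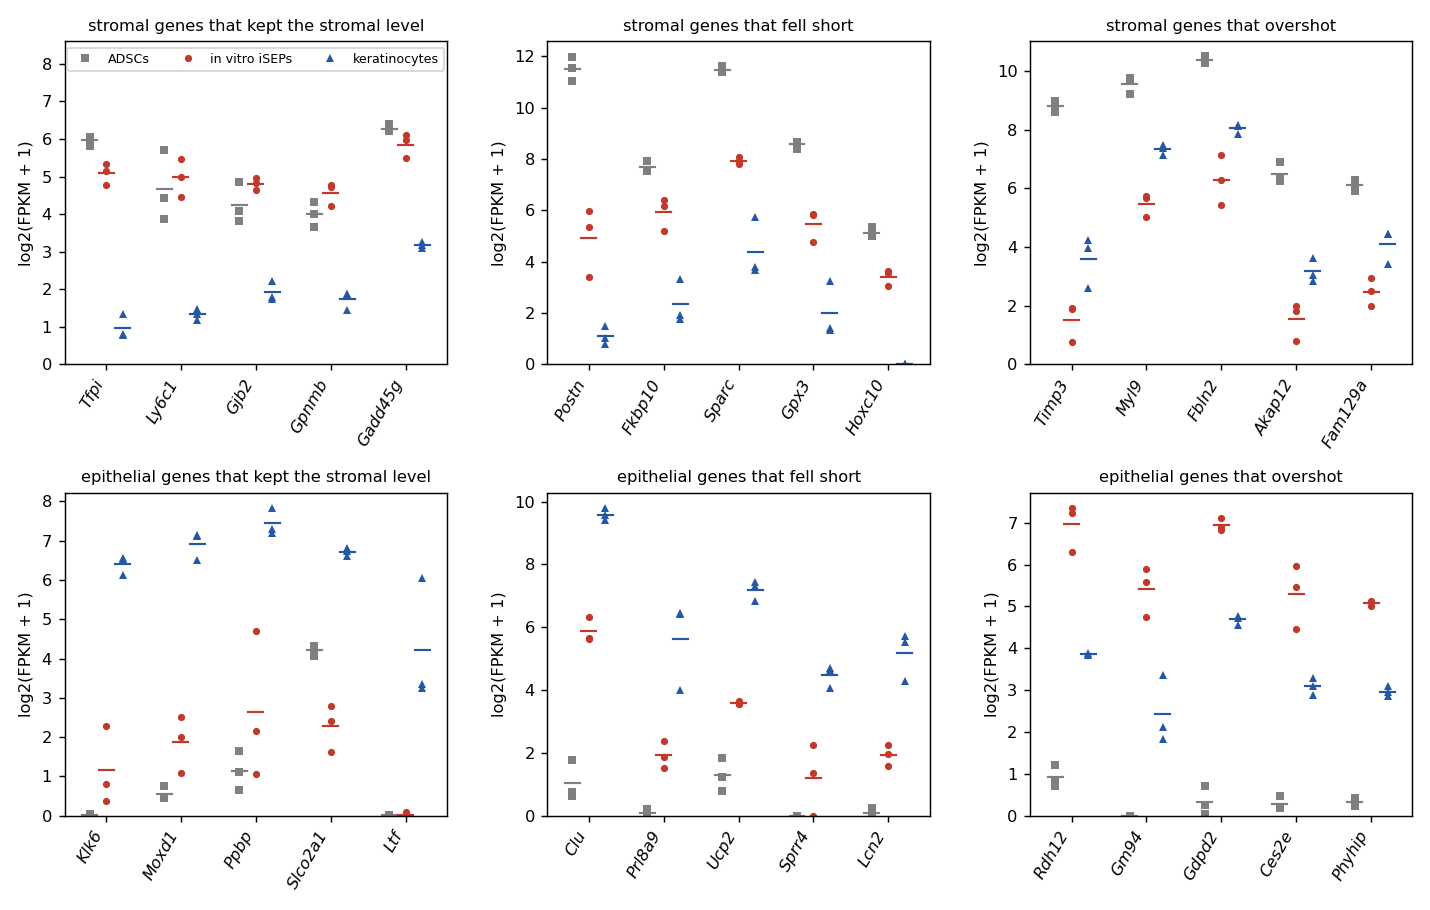
The 5 genes with the largest difference from keratinocytes in each of the 6 classes, with log2(FPKM + 1) on the y axis, 1 symbol per library (squares ADSCs, circles in vitro iSEPs, triangles keratinocytes) and a bar at each group mean. Circles lie level with squares in Gjb2 and Ltf, between squares and triangles in Postn, Sparc and Ucp2, and beyond the triangles in Myl9, Rdh12 and Gdpd2.

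Promoter sequence is shown for the 2 genes with the largest difference in each outcome (kept, short and overshot) for which RefSeq's table gives one, as these are the genes whose regulation a reader would look at first. Each is the 150 bases before the start site in GRCm38.p6, the assembly that mm10 names, on the gene's strand. Capitals mark a match to a motif searched on both strands: GCCNNNGGC for TFAP2 factors, TATAAA for the TATA box, and the p63 half-site.

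Klk6, kept the stromal level, chr7:43825300-43825449, plus strand: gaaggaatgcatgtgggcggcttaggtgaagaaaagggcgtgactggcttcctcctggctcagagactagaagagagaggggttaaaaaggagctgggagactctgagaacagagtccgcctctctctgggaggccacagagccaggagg
Moxd1, kept the stromal level, chr10:24223367-24223516, plus strand: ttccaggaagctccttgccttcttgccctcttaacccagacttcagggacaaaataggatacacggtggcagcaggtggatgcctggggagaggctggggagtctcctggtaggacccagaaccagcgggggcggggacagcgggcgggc
Postn, fell short, chr3:54360957-54361106, plus strand: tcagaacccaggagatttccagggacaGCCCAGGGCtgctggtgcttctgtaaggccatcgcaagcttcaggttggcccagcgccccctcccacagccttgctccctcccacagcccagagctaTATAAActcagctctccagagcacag
Prl8a9, fell short, chr13:27564607-27564756, minus strand: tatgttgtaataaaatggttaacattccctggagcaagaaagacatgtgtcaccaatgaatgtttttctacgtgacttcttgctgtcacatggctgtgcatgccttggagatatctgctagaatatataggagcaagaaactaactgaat
Rdh12, overshot, chr12:79208763-79208912, plus strand: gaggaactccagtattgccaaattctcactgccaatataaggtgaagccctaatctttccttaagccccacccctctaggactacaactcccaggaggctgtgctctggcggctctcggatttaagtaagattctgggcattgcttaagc
Gdpd2, overshot, chrX:100730036-100730185, plus strand: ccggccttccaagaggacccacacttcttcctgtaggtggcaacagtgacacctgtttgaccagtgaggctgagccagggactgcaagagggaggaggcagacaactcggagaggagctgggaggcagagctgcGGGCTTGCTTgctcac

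Postn holds a TFAP2 and a TATA match and Gdpd2 a p63 half-site match, while the other 4 windows hold none of the motifs searched, which also included CACGTG (the E-box bound by Myc), AACCNGTT for Grainyhead-like factors and TGANTCA for AP-1. Of the 17175 windows of this length that matched a gene of the table, 11.7% hold the TFAP2 motif, 7.51% the TATA motif, 3.42% the p63 half-site, 4.83% the E-box, 0.937% the Grainyhead-like motif and 4.11% the AP-1 motif. A match is a run of letters and not a measured site. Only 69.6% of the genes in the 6 classes (233 of 335) have an entry, so motif shares were not compared between classes: below 80% coverage such a check is void.

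Many differences lay outside the stromal-to-epithelial axis, although a larger share was called within it. Of the genes that separate ADSCs from keratinocytes, 18.7% of the stromal and 25.1% of the epithelial ones were called, against 11.3% of all genes. The choice of these genes and the call used the same keratinocyte libraries, so the shares are not like for like. Genes whose ADSC and keratinocyte means differed by less than 1 on the log2 scale accounted for 352 of the higher and 386 of the lower calls. These were 2.85% and 3.12% of all genes tested. A further 330 calls met neither condition. Galnt6 (chr15:100689915-100729376), an enzyme that starts O-linked glycosylation, measured 8.93, 62.1 and 34.0 FPKM in in vitro iSEPs, 0.724, 0.335 and 0.392 in keratinocytes and a mean of 0.045 in ADSCs. It was 72.4-fold above keratinocytes, without overlap (log2 difference 4.25 ± 0.50, adjusted p = 0.000838). The long non-coding RNA Lncenc1, known from mouse embryonic stem cells, measured 18.9, 41.0 and 62.1 FPKM against 0.995, 2.63 and 2.54 (adjusted p = 0.000889). Galnt6 was near the floor in the 2 natural cell types and Lncenc1 was low in keratinocytes, and both were well above keratinocytes in all 3 iSEP libraries.

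Wnt3 (chr11:103774175-103818021), a canonical Wnt ligand, measured 71.5, 5.17 and 20.8 FPKM in in vitro iSEPs, 0.149, 0.022 and 0.011 in keratinocytes and 0 in every ADSC library. It had the largest log2 difference of the named rises, 4.33 ± 0.93 (adjusted p = 0.0144), with a wide spread between the iSEP libraries. Wnt3 lost its call without the keratinocytes of mouse 2 (adjusted p = 0.0551) or mouse 3 (0.0523). The hindlimb factor Pitx1 measured 52.3, 19 and 63.5 FPKM against 6.07, 1.49 and 0.979 (adjusted p = 0.0258). It was lost without the iSEPs of mouse 1 or 3 (0.0695 and 0.0902) or the keratinocytes of mouse 2 or 3 (0.095 and 0.0954).

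Other genes were higher in in vitro iSEPs than in keratinocytes with ADSCs lower than both. Igfbp2, a secreted binding protein of insulin-like growth factors, measured 2367, 1043 and 1637 FPKM against 151, 111 and 117, with an ADSC mean of 36.5 (adjusted p = 0.000921). Il18, a cytokine of the interleukin 1 family, measured 190, 62.3 and 180 FPKM against 17.0, 8.58 and 6.47 (adjusted p = 0.000943). The receptor Fgfr3 measured 65.8, 24.8 and 50.6 FPKM against 3.21, 2.23 and 2.74 (adjusted p = 0.00279). In all of these the iSEPs of mouse 2 had the lowest value of their group and still lay above every keratinocyte library. Serpinb6c, a serine protease inhibitor with close paralogues that may share its reads, had means of 74.5 ± 24.3 and 4.10 ± 1.46 FPKM (adjusted p = 0.000409).

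Among genes that were lower in in vitro iSEPs than in both natural cell types, Slc7a3, a transporter of cationic amino acids, measured 0.189, 0.34 and 0.125 FPKM against 4.60, 9.68 and 9.81 in keratinocytes and a mean of 7.25 in ADSCs (log2 difference -2.83 ± 0.31, adjusted p = 0.000519). Id2, an inhibitor of basic helix-loop-helix factors, measured 2.21, 1.82 and 1.02 FPKM against 15.3, 14.4 and 11.5, with an ADSC mean of 19.1 (adjusted p = 0.000243). Both lay below the other groups in every iSEP library. Pmepa1, a target and inhibitor of TGF beta signalling, measured 6.19, 23.4 and 10.2 FPKM against 61.4, 59.3 and 60.2 (adjusted p = 0.0085). Adam12 and Gne were lower by 4.83-fold and 6.61-fold (adjusted p = 0.021 and 0.02). Adam12 was lost without the keratinocytes of mouse 1, 2 or 3 (0.0653, 0.0734 and 0.0629), and Gne without the iSEPs of mouse 1 (0.0594) or the keratinocytes of mouse 1, 2 or 3 (0.0707, 0.0704 and 0.0526).

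The remaining large falls were Acta1, Aldh1a3 and Mir147. Skeletal alpha-actin, encoded by Acta1, had means of 6.04 ± 8.69 FPKM in in vitro iSEPs and 91.8 ± 8.84 in keratinocytes (adjusted p = 0.0435), and the retinal dehydrogenase gene Aldh1a3 means of 2.21 ± 0.773 and 40.4 ± 12.7 (adjusted p = 0.0408). Acta1 was lost with the mouse number as a block (0.0581) and without the iSEPs of mouse 1 or 3 (0.112 and 0.14) or the keratinocytes of mouse 1, 2 or 3 (0.113, 0.122 and 0.11). Aldh1a3 was lost without the iSEPs of mouse 1, 2 or 3 (0.0768, 0.0762 and 0.115) or the keratinocytes of mouse 1, 2 or 3 (0.119, 0.111 and 0.0928). Mir147 is a short microRNA entry inside the transcript AA467197 on the same strand, so its value cannot be told from reads of that transcript.

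Genes were then read by function. Counts called in each list are to be read beside 5.22% higher and 6.12% lower over all genes tested. Of 23 epithelial transcription and splicing factors tested (the latter Esrp1 and Esrp2), 5 were higher and 4 lower in in vitro iSEPs. The list median was -0.02, the same as over all genes. Trp63 measured 105, 75.2 and 55.8 FPKM in in vitro iSEPs against 35.1, 32.9 and 36.7 in keratinocytes (2.25-fold higher, adjusted p = 0.0402). Its call was lost with the mouse number as a block (0.0582), and without the iSEPs of mouse 1 or 2 (0.117 and 0.0803) or the keratinocytes of mouse 1, 2 or 3 (0.101, 0.127 and 0.097). Among the other reprogramming factors, Grhl2 stood at 14 ± 2.3 against 19.4 ± 1.18 FPKM (adjusted p = 0.098), Tfap2a at 22.2 ± 11.4 against 24.7 ± 1.48 (0.563) and Myc at 108 ± 41.3 against 63.1 ± 6.87 (0.102), and none was called. Tfap2a was called lower without the iSEPs of mouse 1 (0.0352), and Myc higher without those of mouse 2 (0.0372).

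The factors called lower included Tfap2b, Ovol2 and Runx1, and those called higher Trp63, Ovol1, Klf4, Esrp2 and Dlx3. Ovol1 and Ovol2, paralogous zinc finger genes of epithelial identity, moved in opposite directions. Ovol1 measured 35.0, 14 and 31.7 FPKM against 12.7, 8.56 and 7.64 (adjusted p = 0.0171), and Ovol2 0.936, 1.97 and 2.54 against 5.0, 5.38 and 6.17 (adjusted p = 0.0169), each without overlap. Ovol1 was lost without the iSEPs of mouse 1 or 3 (0.0514 and 0.0661) or the keratinocytes of mouse 2 or 3 (0.0708 and 0.0704), and Ovol2 without the keratinocytes of mouse 2 or 3 (0.0603 and 0.0659). The calls of Tfap2b and Runx1 held without any 1 library.

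Among basal keratinocyte genes, the defining keratins were not called and some adhesion genes were lower. Krt5 stood at 10270 ± 1276 FPKM in in vitro iSEPs and 8968 ± 422 in keratinocytes, and Krt14 at 9817 ± 1269 and 11370 ± 578 (adjusted p = 0.765 and 0.561). Of 18 genes on the list, 4 were lower (Itga3, Itga6, Itgb4 and Cdh3), where 6.12% of all genes were, and 1 was higher (Dlk2), at a list median of -0.25. Itgb4, the beta chain of the hemidesmosome integrin, measured 96.1, 162 and 126 FPKM against 217, 231 and 251 (1.82-fold lower, adjusted p = 0.00888). Its partner Itga6 stood at 75.8 ± 21.5 against 125 ± 8.25 FPKM (adjusted p = 0.0222), lost without the keratinocytes of mouse 1, 2 or 3 (0.0771, 0.0613 and 0.0729). Itga3 stood at 89.1 ± 28.8 against 172 ± 40.6 (adjusted p = 0.0404), lost with the mouse block (0.0519) and without the iSEPs of mouse 1 or 3 (0.0744 and 0.128) or the keratinocytes of mouse 2 or 3 (0.13 and 0.142). Dlk2, a Notch-related surface protein, measured 25.6, 13.5 and 10.3 FPKM against 1.98, 1.5 and 1.68, above every keratinocyte library (adjusted p = 0.00316). Dlk2 and Itgb4 held without any 1 library.

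Cell junction genes were divided. Of 14 desmosome genes, 2 were called higher and 2 lower, at a list median of 0.52. The libraries of 8 of the 14 lay wholly above keratinocytes and those of 2 wholly below, against 17.8% and 23% of all genes. Dsp, the linker to keratin filaments, measured 557, 511 and 647 FPKM against 376, 374 and 374 (1.52-fold higher, adjusted p = 0.00451). Dsg1a, a desmosomal cadherin of the upper layers, measured 36.6, 3.50 and 14.4 FPKM against 2.24, 0.93 and 0.663 (adjusted p = 0.0344). Dsg2 and Pkp2, desmosome genes of simple epithelia, were lower by 2.93-fold and 2.90-fold (adjusted p = 0.0356 and 0.0241). Of these only Dsp held without any 1 library: without the iSEPs of mouse 3, for example, the adjusted p was 0.0964 for Dsg1a, 0.0585 for Dsg2 and 0.085 for Pkp2.

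Of 27 tight and adherens junction genes, 4 were lower (Cdh3, Epcam, Cldn7 and Marveld2) and 1, Llgl2, was higher, at a list median of -0.49 beside -0.02 over all genes. The libraries of 15 of the 27 lay wholly below keratinocytes, against 23% of all genes. Epcam, an adhesion molecule of simple and progenitor epithelia, measured 17.8, 37.6 and 18.2 FPKM against 162, 138 and 139 (5.96-fold lower, adjusted p = 0.0435). It was lost with the mouse block (0.0592) and without any 1 of the 6 libraries, from 0.0524 without the iSEPs of mouse 2 to 0.122 without those of mouse 3. Cdh1, which encodes E-cadherin, stood at 185 ± 57.8 and 252 ± 37.2 FPKM with overlapping libraries (adjusted p = 0.263). None of the 5 calls held without every single library.

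Among 42 genes of the suprabasal layers and cornified envelope, 7 were higher (Krt10, Tgm1, Lce3c, Sbsn, Alox12b, Aloxe3 and Dsg1a) and 3 lower (Sprr4, Cst6 and Sptlc3), at a list median of 0.80. Over all genes tested, 5.22% were called higher and 6.12% lower. Without overlap, 10 of the 42 were higher and 4 lower, beside 17.8% and 23% of all genes. Only 2 of the 7 higher calls, Sbsn and Alox12b, held without the iSEPs of mouse 3. Krt10, the first keratin of suprabasal cells, measured 92.3, 2.95 and 34.9 FPKM in in vitro iSEPs against 1.00, 0.747 and 0.702 in keratinocytes (53.1-fold, adjusted p = 0.0302). The iSEPs of mouse 2 stood near the keratinocytes and those of mouse 1 far above them. Significance was lost without the iSEPs of mouse 1 or 3 (0.0784 and 0.0979) or the keratinocytes of mouse 1, 2 or 3 (0.0769, 0.0927 and 0.0878). Alox12b, the lipoxygenase that builds the lipid envelope of the barrier, measured 11.5, 1.81 and 9.70 FPKM against 0.513, 0.059 and 0.071 (adjusted p = 0.00666). Suprabasin, encoded by Sbsn, measured 817, 744 and 1202 FPKM against 298, 292 and 253 (adjusted p = 0.00179). Alox12b, Sbsn and Sprr4 held without any 1 library.

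The 9 kallikreins included 2 calls, both lower: Klk6 and Klk7. Klk7, a protease that sheds cells of the cornified layer, measured 39.1, 4.43 and 8.48 FPKM against 65.8, 129 and 116 (adjusted p = 0.0229). It was lost without the iSEPs of mouse 2 or 3 (0.0663 and 0.0796) or the keratinocytes of mouse 2 or 3 (0.088 and 0.0787). None of the 7 wound and stress keratins and none of the 6 keratins of simple epithelium was called. Krt17 stood at 5600 ± 732 against 3766 ± 260 FPKM (adjusted p = 0.0958) and Krt18 at 12.7 ± 10.4 against 31.6 ± 5.07 (adjusted p = 0.392).

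Mesenchymal genes were on average above keratinocytes. Of 32 mesenchymal and fibroblast genes, 8 were higher (Vim, Thy1, S100a4, Sparc, Fbn1, Postn, Mfap5 and Ly6a) and 2 lower (Fbln2 and Myl9), at a list median of 0.80, and 19 lay above keratinocytes without overlap, as 17.8% of all genes did. Of 22 collagen genes, 7 were higher and 2 lower, at a list median of 0.93. Col3a1, of fibrillar collagen III, measured 13.7, 18.3 and 13.4 FPKM in in vitro iSEPs against 2.78, 2.55 and 1.60 in keratinocytes, from 1498 ± 707 in ADSCs (adjusted p = 0.00511). It stood far nearer to keratinocytes than to ADSCs, at a position of 0.738, and still did not overlap the keratinocytes.

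Col1a1 stood at 4.63, 16.0 and 12.3 FPKM against 2.39, 2.05 and 1.49, from 1739 ± 133 in ADSCs (adjusted p = 0.0235), and the intermediate filament gene Vim at 42.2, 147 and 115 against 19.1, 19.8 and 17.9 (adjusted p = 0.0319). In both, the iSEPs of mouse 1 were the nearest to keratinocytes. Col1a1 was lost without the iSEPs of mouse 2 or 3 (0.0702 and 0.0816) or the keratinocytes of mouse 1, 2 or 3 (0.0561, 0.0757 and 0.0842), and Vim without the iSEPs of mouse 2 or 3 (0.0909 and 0.102) or the keratinocytes of mouse 1, 2 or 3 (0.0845, 0.0909 and 0.0935). Of the 19 calls of the 2 lists, those of Sparc, Postn, Myl9 and Col3a1 held without any 1 library. Pdgfra, whose promoter drives the Cre, stood at 3.24 ± 1.48 against 0.835 ± 0.134 FPKM (adjusted p = 0.0579, and 0.0383 without the iSEPs of mouse 1).

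The stromal transcription factors gave 5 higher calls (Twist1, Prrx1, Osr1, Tbx15 and Tbx18) and 2 lower (Foxc1 and Foxp1) among 24 tested, beside 5.22% and 6.12% of all genes. Twist1, a basic helix-loop-helix factor of mesenchyme, measured 8.58, 4.15 and 8.73 FPKM against 0.714, 0.723 and 0.715, from 31.4 ± 4.27 in ADSCs (adjusted p = 0.00411). Tbx15, a T-box factor of skin and limb mesenchyme, measured 8.17, 12.4 and 5.68 FPKM against 0.326, 0.36 and 0.336, from 30.7 ± 4.06 (adjusted p = 0.000539). Twist1 and Tbx15 stood between the natural cell types, at positions of 0.483 and 0.384, and both held without any 1 library, which the 5 other calls did not. Of 18 limb and position factors, 6 were higher and 2, Irx1 and Irx2, lower, and En1 measured 2.02, 3.93 and 3.34 FPKM against 0.078, 0.149 and 0.143 (adjusted p = 0.000766). Of the calls on this list, only those of Tbx15, En1 and Irx1 held without any 1 library.

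Hox genes, whose expression records the position of a cell along the body, were the list with the most calls, 16 of the 26 tested: 8 higher (Hoxa9, Hoxa10, Hoxc6, Hoxc8, Hoxc9, Hoxc10, Hoxc11 and Hoxc13) and 8 lower (Hoxa3, Hoxa5 and Hoxb2 to Hoxb7). The higher ones are of the posterior HoxA genes and the HoxC cluster, and the lower ones of anterior HoxA and HoxB. Over all genes tested, 11.3% were called, 5.22% higher and 6.12% lower. Hoxa9 measured 8.49, 8.39 and 2.77 FPKM in in vitro iSEPs against 0.098, 0.091 and 0.076 in keratinocytes, with an ADSC mean of 3.55 ± 0.54 (adjusted p = 0.000539). Hoxc9 measured 4.87, 4.07 and 5.46 FPKM against 0.29, 0.161 and 0.155, from 9.05 ± 0.716 in ADSCs (adjusted p = 0.000114). These posterior genes were close to off in keratinocytes of back skin and on in every library of in vitro iSEPs and ADSCs. Hoxc8 measured 14.4, 7.73 and 9.24 FPKM against 2.34, 0.614 and 1.01, from 14.9 ± 2.05 (adjusted p = 0.00881).

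The lower HoxB genes stood below both natural cell types: for each of Hoxb2 to Hoxb7, all 3 libraries of in vitro iSEPs lay below all 3 of ADSCs and all 3 of keratinocytes. Hoxb2, chosen after its values were seen, measured 0.623, 0.843 and 0.174 FPKM in in vitro iSEPs against 5.62, 6.02 and 5.36 in keratinocytes and a mean of 6.75 in ADSCs (adjusted p = 0.000412). Hoxb6, chosen in the same way, measured 0.414, 0.76 and 0.642 FPKM against 7.93, 3.02 and 3.76, with an ADSC mean of 4.94 (adjusted p = 0.00316). Hoxa3 and Hoxa5 differed from this, with iSEP libraries that overlapped those of ADSCs. Of the 16 calls, 5 of the higher (Hoxa9, Hoxa10, Hoxc8, Hoxc9 and Hoxc10) and 7 of the lower (all but Hoxb7) held without any 1 library, and all but Hoxc11 held without the iSEPs of mouse 3. Hoxc10 is described above.

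**Figure D3:**
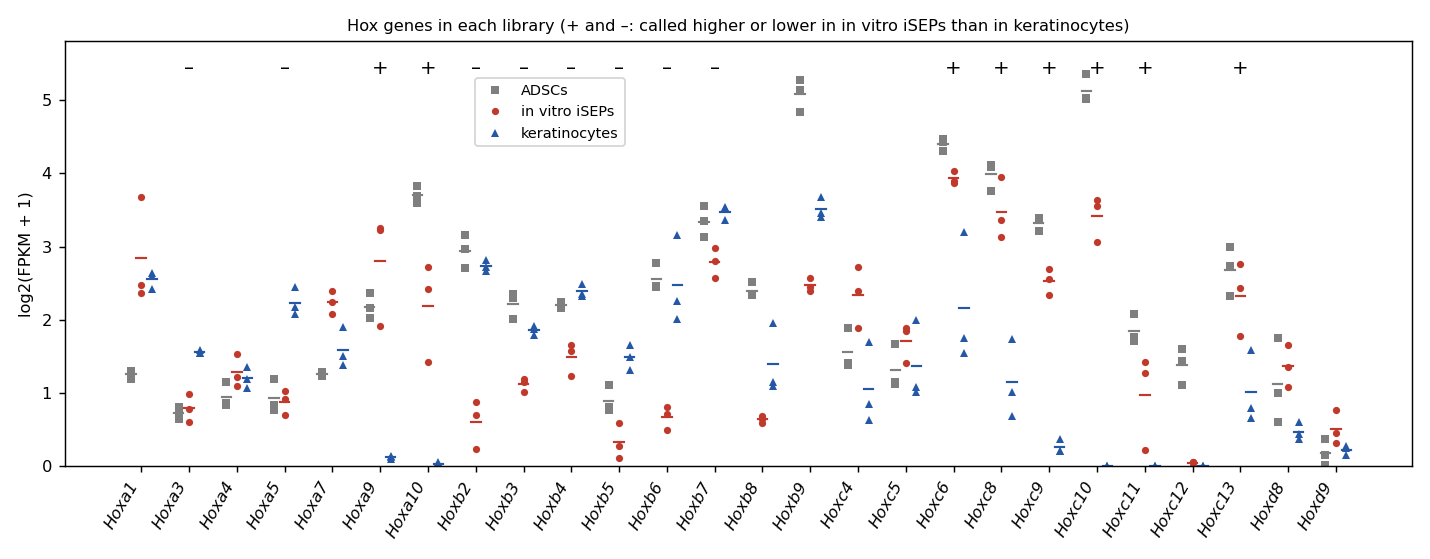
Level of each of the 26 Hox genes tested in every library of ADSCs (squares), in vitro iSEPs (circles) and keratinocytes (triangles), as log2(FPKM + 1), with bars at the group means and + or – above the 16 called genes. Circles of Hoxa9, Hoxa10 and Hoxc8 to Hoxc10 lie near or toward the squares while the triangles are low, and circles of Hoxb2 to Hoxb6 lie below the triangles.

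The Wnt pathway had 5 higher calls, all ligands (Wnt3, Wnt5a, Wnt6, Wnt7a and Wnt10a), and 5 lower ones (Wnt9a, Fzd2, Fzd7, Dkk3 and Tcf7), among 30 genes at a list median of -0.03. For this list and the next, the shares over all genes were 5.22% higher and 6.12% lower. Wnt6 measured 10.9, 4.36 and 4.12 FPKM in in vitro iSEPs, 0.74, 0.402 and 0.29 in keratinocytes and 0 in ADSCs (adjusted p = 0.00511). Wnt5a, the main non-canonical ligand, measured 13.5, 13.1 and 14.1 FPKM against 6.93, 3.33 and 3.13, with an ADSC mean of 10.6 (adjusted p = 0.00715). The antagonist-related gene Dkk3 stood at 18 ± 8.02 against 64.6 ± 10.5 (adjusted p = 0.0134), and its call was lost without the keratinocytes of mouse 1 (0.0523). Wnt5a, Wnt6, Wnt9a and Fzd2 held without any 1 library. In the Notch pathway 2 of 11 genes were higher and 1 was lower: the receptor Notch3 measured 13.4, 13.5 and 15.7 FPKM against 5.22, 3.78 and 3.48 (adjusted p = 0.00104), the modifier Rfng stood at 11.4 ± 1.1 against 4.57 ± 0.037 (adjusted p = 0.012), and the ligand Jag1 at 22.3 ± 9.25 against 56.6 ± 6.47 (adjusted p = 0.0406). Jag1 was lost with the mouse block (0.0603) and without the iSEPs of mouse 2 or 3 (0.0604 and 0.13) or the keratinocytes of mouse 1, 2 or 3 (0.0918, 0.108 and 0.125).

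Growth factor and immediate early genes gave calls in both directions, to be read beside the 11.3% called over all genes. Of 12 EGF receptors and ligands, Nrg2 was higher and Erbb3, Errfi1 and Lrig1 lower. Lrig1, a brake on EGF receptors and a marker of epidermal stem cells, measured 14.3, 19 and 11.7 FPKM against 32.6, 34.3 and 33.1 (adjusted p = 0.00155) and was the only one of the 4 to hold without any 1 library. Of 19 FGF, PDGF and insulin-like genes, Fgfr3 and Igf2 were higher, and the imprinted growth factor Igf2 measured 7.42, 3.87 and 2.85 FPKM against 0.429, 0.695 and 0.613 (adjusted p = 0.00512). Of 20 AP-1 and immediate early genes 3 were higher (Fos, Fosl1 and Egr1) and 1, Egr2, was lower. Fos measured 38.6, 38.8 and 40.7 FPKM against 18, 15.4 and 13.0 (adjusted p = 0.00547) and held without any 1 library, which the 3 others did not.

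Cell cycle genes were not called with 2 exceptions of 32, Ccne2 and E2f1, both lower, at a list median of -0.49, and 12 of the 32 lay below keratinocytes without overlap (23% of all genes did). Ccne2, a cyclin of S phase entry, stood at 3.03 ± 0.113 against 12.3 ± 0.992 FPKM (adjusted p = 0.043) and E2f1 at 6.66 ± 1.04 against 11.3 ± 0.63 (adjusted p = 0.0401). Neither held: without the iSEPs of mouse 3 the adjusted p was 0.106 and 0.113, and with the mouse block 0.0558 and 0.0593. Of 20 p53 targets and CDK inhibitors, Cdkn2a was higher and Cdkn1b lower. Cdkn2a, the locus of p16 and p19Arf, measured 66.5, 146 and 97.3 FPKM against 23.5, 18.9 and 15.4, with an ADSC mean of 68.1 ± 14.5 (adjusted p = 0.00769), and it held without any 1 library. Of 22 TGF beta and YAP targets, Pmepa1 and Skil were lower and none was higher. Of 10 Sox factors, Sox4 and Sox11 were lower, and Sox4 measured 26.2, 42.9 and 29.8 FPKM against 91.4, 84.2 and 67.4 (adjusted p = 0.00429). Of 16 hair follicle genes, 4 were higher (Foxn1, Hoxc13, Dlx3 and Gli2) and Padi3 and Vdr lower. Vdr, the vitamin D receptor, measured 19.8, 21.1 and 25.4 FPKM against 70.3, 62.0 and 57.4 (adjusted p = 0.00397), and Sox4, Vdr and Gli2 held without any 1 library.

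No interferon response gene of 21 was called (8 were higher without overlap, as were 17.8% of all genes), and some genes showed a wide spread within in vitro iSEPs. Isg15, chosen after its values were seen, measured 88.9, 3.02 and 0.482 FPKM in iSEPs of mice 1, 2 and 3 against 1.37, 0.965 and 1.33 in keratinocytes (adjusted p = 0.3). The iSEPs of mouse 1 stood apart on this gene, and adjusted p without them was 0.872. They also stood apart on some genes that the filter left untested. In iSEPs of mice 1, 2 and 3, Ifi44 measured 18.3, 0.219 and 0.097 FPKM and Oas1a 8.13, 0.8 and 0.043. Oas2 measured 7.18, 0.113 and 0.042 FPKM, while Mx1, Oasl1 and Rsad2 stayed under 1 FPKM in every iSEP library. B2m stood at 1138 ± 797 against 554 ± 253 FPKM (adjusted p = 0.374).

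Cytokines and chemokines had 1 higher call, Il18, and 5 lower (Il1a, Il11, Cxcl3, Cxcl5 and Ccl27a) of 27, beside 5.22% and 6.12% of all genes. Ccl27a, a chemokine of keratinocytes that attracts T cells to skin, measured 10.1, 3.01 and 3.12 FPKM against 16.7, 31.4 and 34.9 (adjusted p = 0.00659). Among 15 acute phase and antimicrobial genes, Saa3 and Hp were higher and Lcn2, Wfdc2, S100a8 and Ltf lower. Hp, which encodes haptoglobin, measured 25.2, 22.8 and 18.3 FPKM against 1.83, 2.24 and 1.54 (adjusted p = 0.00537). Il18, Ccl27a, Hp, Lcn2 and Ltf held without any 1 library. None of 4 genes of the proliferin family was called, although all 4 lay below keratinocytes without overlap, as 23% of all genes did: Prl2c5, whose near-identical copies may share reads, stood at 17.3 ± 8.01 against 133 ± 64.2 FPKM (adjusted p = 0.0573, and 0.0386 with the mouse block).

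Metabolic genes were called at a share near the 11.3% of all genes. Of 30 genes of cholesterol and fatty acid synthesis 4 were lower, among them Ebp, Srebf1 and Scd1, and none was higher, beside 6.12% and 5.22% of all genes. Without overlap, 7 of the 30 were lower and 2 higher, beside 23% and 17.8% of all genes. Ebp, a sterol isomerase, measured 27.8, 26.7 and 25.7 FPKM against 43.7, 50.2 and 47.3 (1.76-fold lower, adjusted p = 0.00199). Of 23 glycolysis and hypoxia genes, Hk2 and Egln3 were higher and Car9 lower. Egln3, an oxygen sensor of the prolyl hydroxylase family, measured 47.3, 26.4 and 21.4 FPKM against 1.93, 2.41 and 2.96 (13.0-fold higher, adjusted p = 0.00537), while Car9 stood at 0.144 ± 0.143 against 1.60 ± 0.599 (adjusted p = 0.00382). Both genes are targets of the hypoxia factor HIF and moved in opposite directions. Ebp, Egln3 and Car9 held without any 1 library, which the other calls of these 2 lists did not.

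Of 15 genes of DNA methylation and histone modification, Dnmt3l was higher and Dnmt3a, Dnmt3b and Ezh2 lower. The call of Dnmt3l held without any 1 library, and those of the 3 lower genes did not. Dnmt3l, a germline cofactor of the methyltransferases, measured 1.16, 2.97 and 2.75 FPKM against 0.06, 0.062 and 0.06, with an ADSC mean of 2.80 ± 0.178 (adjusted p = 0.00857). It stood at the ADSC level in 2 of the 3 iSEP libraries. Imprinted genes gave Igf2 and Dlk1 as higher calls among 20, and adipose lineage genes Fabp4 and Dlk1 among 10. Igf2 held without any 1 library, while Dlk1 was lost without the iSEPs of mouse 2 or 3 (adjusted p = 0.0587 and 0.0679) or the keratinocytes of mouse 1, 2 or 3 (0.0551, 0.0665 and 0.0687), so that with Fabp4 no adipose lineage call held. Fabp4, the fatty acid binding protein of fat cells, measured 14.1, 20.0 and 11.7 FPKM against 3.97, 2.94 and 2.72 (adjusted p = 0.0132), and was lost without the keratinocytes of mouse 2 or 3 (0.0535 for each). The 5 adipocyte markers summed to 12.3 to 20.1 FPKM in in vitro iSEPs and 2.73 to 4.05 in keratinocytes, with Adipoq and Plin1 at 0 in all 6 libraries. Among 22 matrix proteases and inhibitors 4 were higher and 3 lower, beside 5.22% and 6.12% of all genes. Mmp2, a gelatinase of stroma, measured 30.3, 43.2 and 31.2 FPKM against 5.02, 5.74 and 4.54 (adjusted p = 0.00296).

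**Figure D4:**
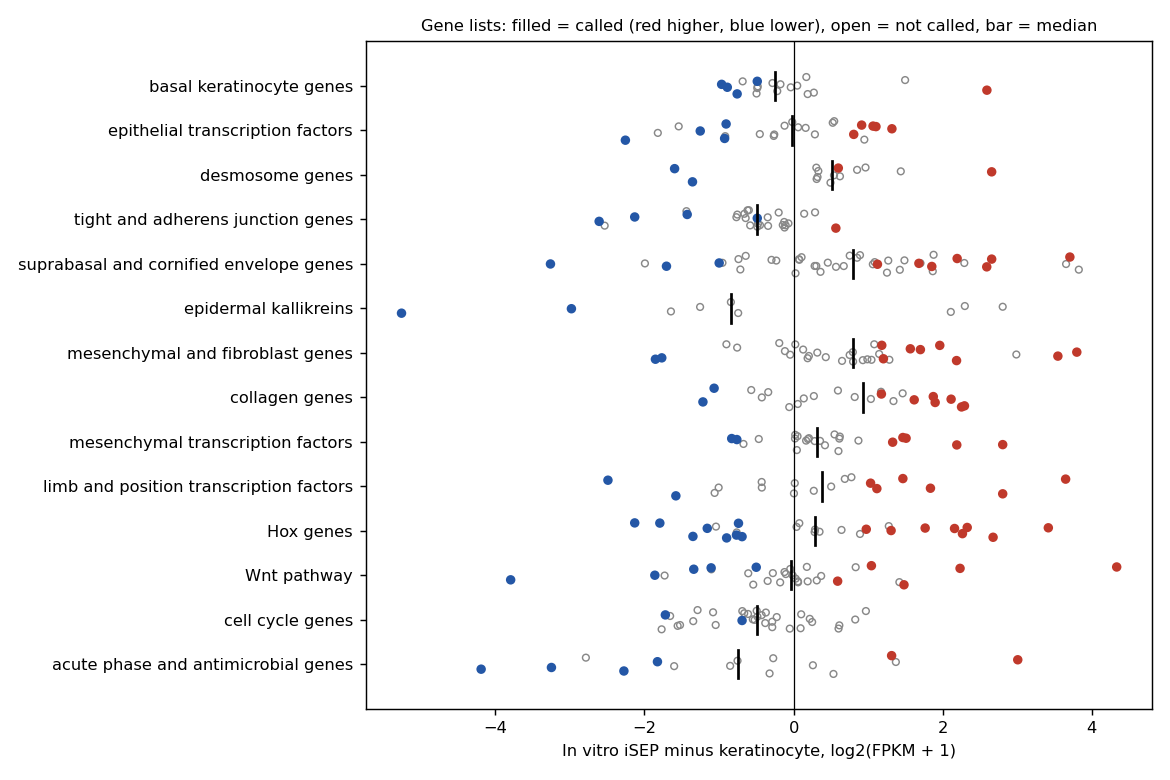
In vitro iSEP minus keratinocyte difference of log2(FPKM + 1) for the tested members of 14 gene lists, 1 point per gene (red called higher, blue called lower, open not called) and a bar at each list's median. The medians of the suprabasal, mesenchymal and collagen lists lie near 0.80, 0.80 and 0.93, and the Hox list has 8 red and 8 blue points.

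In vivo iSEPs were compared with the same keratinocytes in the same fit, so the values below share those libraries. They differed from keratinocytes in 925 genes (7.48%, 3.41% higher and 4.08% lower) and from in vitro iSEPs in 201 (1.63%, 0.679% higher and 0.946% lower). The latter count was 128 with the mouse number as a block, 353 when in vitro iSEPs of mouse 2 were left out, 58 when those of mouse 3 were, and 94 and 104 without the keratinocytes of mouse 2 and 3. In the 39 epithelial genes that kept the stromal level in vitro, the median difference from keratinocytes was -2.01 in in vivo iSEPs beside -2.26 in vitro, and 1 of the 39 was called between the 2 kinds of iSEP. In the 98 stromal genes that fell short the medians were 0.80 and 1.34, and 23 were called between them. Both classes were chosen by the in vitro difference from keratinocytes, so the in vivo and in vitro medians are not like for like. Klk6 and Moxd1 had means of 2.87 and 10.8 FPKM in in vivo iSEPs, also far below keratinocytes (adjusted p = 0.00137 and 0.00705). Hoxc10 was listed at 0.037, 0 and 0 FPKM there, below all libraries of in vitro iSEPs (adjusted p = 5.25e-06).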

How the data were processed

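RNA was sequenced from 12 cultures, 3 of each of 4 cell types from mice 1 to 3. The authors deposited 1 table of FPKM values; FastQC 0.11.5, STAR 2.5.1b, HOMER and the mm10 build are named in the submitters' processing notes. Per the file headers, FPKM were counted by HOMER over exons on the + strand, 1 transcript per gene. The sources used here do not say whether the kit kept strand, so overlapping genes may share reads. 3 further columns matched no sample and were not used.

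Of 24537 genes, 12364 reached 1 FPKM in 3 or more libraries and were tested. The 619 to 731 low values checked per library were whole multiples of 1 read within 0.15 reads, which gave 21010000 to 27770000 reads in listed genes per library. log2(FPKM + 1), which understates changes of low genes, was fitted with limma 3.58.1 (R 4.3.3) as 4 group means over all 12 libraries, with a variance trend. Tests are two-sided, and adjusted p-values are Benjamini-Hochberg over all genes tested, called below 0.05. The script was checked on simulated data. The members and the 45 gene lists were chosen with earlier results of these data known.

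Named genes were the 12 largest rises and 12 largest falls among called genes without overlap and with at least 5 FPKM in the higher group, the 5 largest of each position class and of each direction outside the span, up to 4 called genes per list (or the most abundant where none was called), and a set list: Trp63, Grhl2, Tfap2a, Myc, Krt5, Krt14, Krt10, Krt18, Cdh1, Epcam, Vim, Col1a1 and Pdgfra. Hoxa3, Hoxa5, Hoxa10, Hoxb2, Hoxb6, Hoxc6, Isg15, Lgals3bp, Sbsn, Ccl27a and Wnt5a were added after their values were seen. Some genes are not reported here. The pairing rests on the labels, in which the number names the mouse. The data bear it out only in part: the iSEP library of mouse 3 has little of the Y-linked transcripts of its number, iSEPs of mouse 2 correlated more with keratinocytes of mouse 3 (0.126) than with those of mouse 2, and same-numbered in vitro iSEP and keratinocyte libraries had correlations of deviations from the group means of 0.116, 0.0918 and -0.021.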

Additional observations from a re-analysis of the deposited data

Results flagged for a closer look

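The 2 ways of making iSEPs differed in some of the genes named above. Of 138 named genes called between in vitro iSEPs and keratinocytes, 23 were also called between in vivo and in vitro iSEPs by limma, beside 1.63% of all genes. Both contrasts share the in vitro libraries, and most named genes were chosen by their difference from keratinocytes, so the 2 shares are not like for like. Leaving out 1 library or all of 1 mouse gave 2 to 353 calls between the 2 kinds of iSEP over all genes. The 23 calls were not followed gene by gene in those fits. Differences here are in vivo minus in vitro means of log2(FPKM + 1). Among posterior Hox genes the difference was -3.40 for Hoxc10 (adjusted p = 5.25e-06), -2.76 for Hoxa9 (adjusted p = 0.0019), -1.87 for Hoxc9 (adjusted p = 0.00154) and -2.17 for Hoxa10 (adjusted p = 0.00441). Among genes of matrix and adipose stroma it was -3.21 for Postn (adjusted p = 0.0324), -2.88 for Col3a1 (adjusted p = 0.00878), -3.13 for Col1a2 (adjusted p = 0.0324), -2.55 for Dlk1 (adjusted p = 0.0468), -2.26 for Fabp4 (adjusted p = 0.0239) and -2.10 for Col1a1 (adjusted p = 0.0468). Among other genes that were lower in vivo it was -2.35 for Lncenc1 (adjusted p = 0.0275), -2.06 for Il18 (adjusted p = 0.0458), -2.54 for Gm94 (adjusted p = 0.049), -1.36 for Ovol1 (adjusted p = 0.0471) and -1.50 for Egr1 (adjusted p = 0.0397). It was also -1.46 for Fos (adjusted p = 0.0126), -3.27 for Hp (adjusted p = 0.0137), -2.58 for Lgals3bp (adjusted p = 0.028) and -1.16 for Sbsn (adjusted p = 0.0358). Higher in vivo were Ucp2 by 2.87 (adjusted p = 0.0152), Myl9 by 2.5 (adjusted p = 0.00778), Lrig1 by 0.81 (adjusted p = 0.0284) and Hoxb2 by 1.88 (adjusted p = 0.00344).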

How the results depend on the processing

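Under 19 alternative fits no named gene changed direction where it was called in the main fit or in the alternative. Changes of direction in genes called in neither were not counted. In 99.6% of all called genes the libraries did not overlap. Leaving out libraries or changing the pseudocount could not reverse those, so the lack of reversals says little. Of 2945 values of the 156 named genes, 592 lost a call and 16 gained one, and 33 of the 138 calls held under every alternative. With the mouse number as a block, 1270 genes were called in place of 1403 (605 higher, 665 lower), of which 1166 were among the original calls, and the in vivo against in vitro count was 128. The block ended the calls of 27 of 180 genes named or called within lists, among them Acta1, Fbln2, Trp63, Itga3, Epcam, Ccne2, E2f1, Jag1, Cldn7, Col5a2, Col5a3, Col6a3, Sox11, Hoxc11, Hoxc13, Skil, Fosl1, Scd1, Srebf1, Ezh2, Dnmt3a, Sptlc3, Mfap5, Osr1, Tcf7 and Wfdc2. Without the in vivo libraries the count was 2436 (1030 higher, 1406 lower), and from the 6 libraries alone the lower calls were 1205. The share of higher calls among all calls ranged from 41.5% to 50.3% over the alternatives of filter, scaling, pseudocount and block.

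The class counts depended on the pseudocount and thresholds. Without the in vivo libraries, 163 stromal and 201 epithelial genes fell short, 27 and 76 overshot, and 574 and 809 genes lay outside the span, higher and lower. With a pseudocount of 0.1, 54 stromal genes kept the stromal level, 154 fell short, and 29 stromal and 67 epithelial genes overshot. With a pseudocount of 5, 3 stromal and 16 epithelial genes kept it, 44 and 68 fell short and 6 and 16 overshot. With a span of at least 1, 62 stromal and 107 epithelial genes kept it, 210 epithelial genes fell short and 48 and 99 overshot. With kept defined as a position below 0.5, 53 and 83 kept it and 79 epithelial genes fell short. With no filter, 8 and 24 overshot, and at 5 FPKM, 20 epithelial genes kept the stromal level. Apart from what each alternative changes by construction, the cause was not tested.

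Leaving out 1 library, or all of 1 mouse, gave 193 to 1180 calls (100 to 574 higher, 93 to 653 lower). Stromal genes kept, short and overshot numbered 9 to 21, 10 to 127 and 0 to 20, epithelial genes 25 to 42, 17 to 95 and 14 to 49, and genes outside the span 41 to 301 higher and 25 to 330 lower. The counts of the comparisons with ADSCs were 3920 to 6774 for keratinocytes and 4295 to 6460 for in vitro iSEPs, and the in vivo against in vitro count was 2 to 353. Of 180 genes named or called within lists, 101 lost the call without at least 1 library.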
